A study of Mus musculus with 8 samples.

Results

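The tissue inhibitors of metalloproteinases and the matrix metalloproteinases of the left ventricle were described here through 10 genes, the 4 inhibitors *Timp1*, *Timp2*, *Timp3* and *Timp4* and the 6 proteases *Mmp2*, *Mmp3*, *Mmp9*, *Mmp14*, *Mmp15* and *Mmp19*. They were taken by gene name from a table of 55679 genes, and all 10 were found in it. The study asked how gene expression differs in a heart whose left ventricle thickens under high blood pressure. It compared left ventricles of male wild-type C57BL/6J mice that received angiotensin II (ANG II, a vasoconstrictor peptide hormone) at 1500 ng/kg/min for 7 days with those of mice that received saline for the same 7 days (control). Each group had 4 libraries here, and the study describes further samples, which were not analysed here. The libraries were made from poly(A) RNA of whole left ventricle, so that every cell type of the tissue was measured together. The values were FPKM (fragment counts divided by transcript length and by library size), and the steps between the FPKM values gave 14455654 to 16564828 fragments per library.

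Matrix metalloproteinases are zinc-dependent enzymes that cut collagens, fibronectin, laminins and other proteins of the extracellular matrix. They are made as inactive precursors, and a propeptide has to be removed before they cut, so a transcript level is not a level of enzyme activity. The Timp proteins are secreted and block the active enzyme by placing their first cysteine on its catalytic zinc. In the heart, fibroblasts, endothelial cells, immune cells and cardiomyocytes all contribute to this system, which turns over the matrix during remodelling.

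The family traits that give the inhibitors and the proteases their names can be read in the genes themselves. The start of the mature inhibitor encodes cysteine, another residue and cysteine, and this stretch is shown because it is the part that enters the active site. The codons of the 2 cysteines are in capitals, 5′ to 3′ on the coding strand, from 1 GENCODE M21 transcript per gene (GRCm38). The stretch lies in exon 2 of *Timp1* (chrX:20871111-20871137, plus strand), in exon 1 of *Timp2* (chr11:118354986-118355012, minus strand), in exon 1 of *Timp3* (chr10:86300923-86300949, plus strand) and in exon 1 of *Timp4* (chr6:115251665-115251691, minus strand).
Timp1: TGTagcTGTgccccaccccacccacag
Timp2: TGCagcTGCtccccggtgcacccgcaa
Timp3: TGCacaTGCtctcccagccatccccag
Timp4: TGCagcTGTgcgcctgcgcacccccag
Of these 27 bases, 14 were the same in all 4 inhibitors, and the closest pair was *Timp1* and *Timp4* with 21.

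In the proteases, the corresponding stretch encodes the 3 histidines that hold the catalytic zinc, whose codons are in capitals. It is shown because it is what the inhibitors act on, and because it is shared by proteases whose transcripts moved differently. The stretch lies in exon 8 of *Mmp2* (chr8:92839279-92839311), exon 5 of *Mmp3* (chr9:7449775-7449807), exon 8 of *Mmp9* (chr2:164951133-164951165), exon 5 of *Mmp14* (chr14:54437627-54437659), exon 5 of *Mmp15* (chr8:95368585-95368617) and exon 5 of *Mmp19* (chr10:128795673-128795705), all on the plus strand.
Mmp2: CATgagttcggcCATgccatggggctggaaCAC
Mmp3: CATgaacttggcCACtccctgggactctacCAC
Mmp9: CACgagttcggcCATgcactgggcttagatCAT
Mmp14: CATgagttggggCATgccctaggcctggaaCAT
Mmp15: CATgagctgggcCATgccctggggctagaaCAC
Mmp19: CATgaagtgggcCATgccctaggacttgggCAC
Of these 33 bases, 16 were the same in all 6 proteases. The closest pair was *Mmp2* and *Mmp15* with 29, and *Mmp14* and *Mmp15*, which are both anchored in the cell membrane, shared 27, as did *Mmp2* and *Mmp14*.

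Under ANG II, 7 of the 10 genes rose: the inhibitors *Timp1*, *Timp2* and *Timp3* and the proteases *Mmp2*, *Mmp3*, *Mmp14* and *Mmp19*. Calls required an adjusted p under 0.05 and a log2 fold change beyond 0.5 in either direction, by limma on log2(FPKM + 1) of all 19364 genes averaging 0.1 FPKM or more. The same rule called 14.0% of all tested genes higher and 1.41% lower. No member was called lower by limma on the values as deposited. *Mmp15* passed on the adjusted p (4.04e-04 in limma) and missed the fold change threshold (-0.49). It was called lower by limma with median-of-ratios scaling and with quantile normalization, and by limma voom on the recovered fragments. *Timp4*, *Mmp9* and *Mmp15* were the members without a call. The median log2 fold change was 0.77 over the 4 inhibitors and 1.37 over the 6 proteases, against 0.15 over all tested genes. The groups did not overlap for the 7 called members and for *Mmp15*, which was lower in every ANG II library than in any control. Among all tested genes, 28.7% were higher without overlap and 5.06% were lower without overlap.

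**Figure D1:**
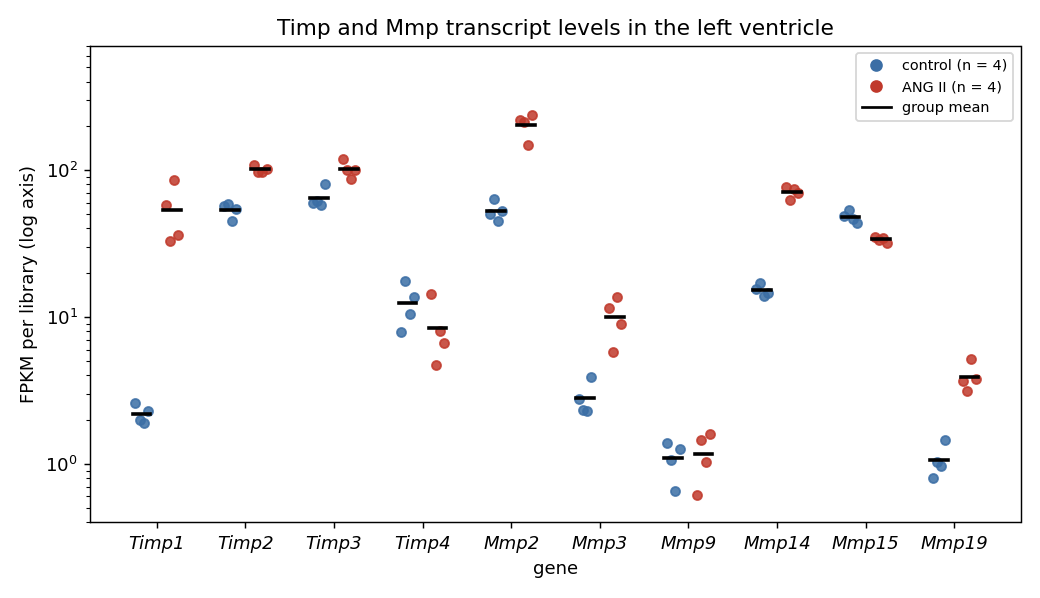
FPKM of the 10 genes in each of 4 control (blue) and 4 ANG II (red) libraries on a log axis, with the mean of each group as a bar. *Timp1* has the widest gap, from 1.90 to 2.58 FPKM in control to 33.1 to 85.4 FPKM in ANG II, *Mmp15* is the only gene whose ANG II points all lie under its control points, and the points of *Timp4* and *Mmp9* mix.

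*Timp1* is the inducible inhibitor of the family and is known to rise in fibrotic tissue. Its gene (ENSMUSG00000001131, chrX:20870166-20874735, plus strand) lies within *Syn1* on the opposite strand. *Timp1* was at 2.58, 2.00, 1.90 and 2.29 FPKM in control 1 to 4 and at 58.2, 33.1, 85.4 and 36.4 FPKM in ANG II 1 to 4. All 4 ANG II libraries were far above the controls, with ANG II 3 well above the others and ANG II 2 lowest. The mean went from 2.19 ± 0.307 to 53.3 ± 24.1 FPKM (SD, n = 4), a ratio of 24.3, with a log2 fold change of 3.99 (SE 0.256, adjusted p = 7.96e-06 in limma). It had the 5th highest log2 fold change of the 2708 genes called higher. The control values rested on 25 to 32 fragments and the ANG II values on 453 to 1108. No exon base of *Timp1* lies under an exon of *Syn1*, which was at 0.0808 to 0.149 FPKM in the controls and at 0.232 to 0.286 FPKM under ANG II (log2 fold change 0.16, adjusted p = 0.137 in limma). The ratio of the *Syn1* means was 2.09, and adding 1 FPKM before the logarithm shrinks the fold change of so low a gene. On its 4 to 14 fragments per library, limma voom gave 1.03 (adjusted p = 0.0393).

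*Timp2* is expressed in most tissues and is a partner of *Mmp14* in the activation of the *Mmp2* precursor. It was at 56.8, 58.5, 44.7 and 54.2 FPKM in control 1 to 4 and at 107.9, 96.5, 97.5 and 102 FPKM in ANG II 1 to 4. The ANG II libraries lay close together, each well above the highest control. The mean was 53.6 ± 6.14 FPKM in the controls and 101 ± 5.22 FPKM under ANG II (SD, n = 4), a log2 fold change of 0.91 (SE 0.0821, adjusted p = 5.03e-05 in limma). The gene (ENSMUSG00000017466, chr11:118301069-118355740, minus strand) holds *Cep295nl* in an intron, with no exon in common.

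*Timp3* binds to the matrix and also inhibits the sheddases of the ADAM family. It was at 59.5, 61.9, 57.5 and 80.9 FPKM in control 1 to 4 and at 118.4, 100.6, 86.8 and 99.6 FPKM in ANG II 1 to 4. The groups were separated by a narrow gap, between control 4 and ANG II 3. The mean rose from 65.0 ± 10.8 to 101 ± 13.0 FPKM (SD, n = 4), a log2 fold change of 0.64 (SE 0.119, adjusted p = 0.00264 in limma). This call was lost when libraries were scaled by the median of ratios (log2 fold change 0.41, adjusted p = 0.0311) and by quantile normalization (0.47), where the adjusted p held and the fold change fell short of the threshold. *Timp3* (ENSMUSG00000020044, chr10:86300372-86349506, plus strand) lies within *Syn3*, and 21.3% of its exon bases are under exons of *Syn3* on the opposite strand. *Syn3* itself was at 0.241 to 0.411 FPKM over the 8 libraries.

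*Timp4* has the most heart-restricted expression of the 4 inhibitors. It was at 7.86, 17.6, 10.4 and 13.6 FPKM in control 1 to 4 and at 14.3, 4.71, 7.99 and 6.61 FPKM in ANG II 1 to 4. Of the ANG II libraries, ANG II 1 lay above 3 of the controls, and each of the other 3 lay under at least 3 of the controls. The means were 12.4 ± 4.22 and 8.40 ± 4.15 FPKM (SD, n = 4), with a log2 fold change of -0.55 (SE 0.302, adjusted p = 0.193 in limma) that was not called. Without ANG II 1, the log2 fold change was -0.82 and the call was made (adjusted p = 0.0469 in limma). It was -0.34 without ANG II 2 (adjusted p = 0.431 in limma) and -0.37 without control 2 (adjusted p = 0.408 in limma), so the value moved in both directions with single libraries. *Timp4* (ENSMUSG00000030317, chr6:115241892-115252205, minus strand) lies within *Syn2*, which was at 1.42 ± 0.281 FPKM in the controls and 1.64 ± 0.521 FPKM under ANG II (SD, n = 4).

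*Mmp14*, also known as membrane type 1 matrix metalloproteinase, cuts fibrillar collagen at the cell surface and activates the *Mmp2* precursor there. It was at 15.5, 17.1, 13.9 and 14.5 FPKM in control 1 to 4 and at 76.3, 62.9, 73.8 and 69.3 FPKM in ANG II 1 to 4. The spread within each group was small beside the gap between them. The mean rose from 15.3 ± 1.41 to 70.6 ± 5.88 FPKM (SD, n = 4), a ratio of 4.63 and a log2 fold change of 2.14 (SE 0.0798, adjusted p = 1.21e-06 in limma). It had the smallest adjusted p of the 10 members. The gene (ENSMUSG00000000957) lies at chr14:54431612-54445364 on the plus strand.

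*Mmp15*, the membrane type 2 enzyme, is held in the membrane like *Mmp14*. It was at 48.4, 53.2, 46.3 and 43.7 FPKM in control 1 to 4 and at 35.2, 33.3, 34.5 and 32.1 FPKM in ANG II 1 to 4. Every ANG II library was lower than every control. The means were 47.9 ± 4.01 and 33.8 ± 1.34 FPKM (SD, n = 4), with a log2 fold change of -0.49 (SE 0.0652, adjusted p = 4.04e-04 in limma), which passed the threshold on p and stopped just short of the threshold on fold change. Relative to the median of all tested genes the log2 fold change was -0.64, and it was -0.71 with median-of-ratios scaling, where *Mmp15* was called. The gene (ENSMUSG00000031790) lies at chr8:95352268-95375080 on the plus strand.

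The gelatinases *Mmp2* and *Mmp9* cut denatured collagen and basement membrane collagen. *Mmp2* was at 50.5, 63.2, 45.2 and 53.0 FPKM in control 1 to 4 and at 218.6, 212.9, 148.7 and 235.6 FPKM in ANG II 1 to 4. The lowest ANG II library, ANG II 3, was still far above the highest control. The mean went from 53.0 ± 7.52 to 204 ± 38.1 FPKM (SD, n = 4), a ratio of 3.85 and a log2 fold change of 1.91 (SE 0.144, adjusted p = 1.83e-05 in limma). *Mmp2* (ENSMUSG00000031740) lies at chr8:92827291-92853420 on the plus strand.

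*Mmp9*, which neutrophils carry in their granules, stayed low in both groups. It was at 1.39, 1.06, 0.653 and 1.26 FPKM in control 1 to 4 and at 0.611, 1.45, 1.02 and 1.60 FPKM in ANG II 1 to 4. The lowest and the highest of the 8 values were both in ANG II. The means were 1.09 ± 0.322 and 1.17 ± 0.445 FPKM (SD, n = 4), with a log2 fold change of 0.04 (SE 0.176, adjusted p = 0.876 in limma). Each value rested on 12 to 33 fragments, and the sign of the difference turned with the scaling of the libraries (-0.07 with the median of ratios and -0.18 with quantile normalization). No difference in *Mmp9* was detectable at this depth. The gene (ENSMUSG00000017737) lies at chr2:164940780-164955850 on the plus strand.

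*Mmp3*, or stromelysin 1, cuts proteoglycans, laminin and fibronectin and activates other metalloproteinase precursors. It was at 2.77, 2.32, 2.28 and 3.88 FPKM in control 1 to 4 and at 11.5, 5.81, 13.6 and 8.93 FPKM in ANG II 1 to 4. The ANG II libraries spread widely and were all above the controls. The mean rose from 2.81 ± 0.748 to 9.95 ± 3.35 FPKM (SD, n = 4), a log2 fold change of 1.49 (SE 0.226, adjusted p = 8.60e-04 in limma), on 61 to 107 fragments per control and 167 to 370 per ANG II library. Of the 50-base words of *Mmp3* (ENSMUSG00000043613, chr9:7445822-7455975, plus strand), 7.99% also occur in *Mmp10*, which was listed at 0 in all controls and reached at most 0.0768 FPKM in ANG II.

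*Mmp19* cuts basement membrane components and fibronectin. It was at 0.797, 1.03, 0.968 and 1.44 FPKM in control 1 to 4 and at 3.64, 3.11, 5.14 and 3.76 FPKM in ANG II 1 to 4. ANG II 3 stood highest, and every ANG II library was above every control. The mean rose from 1.06 ± 0.273 to 3.91 ± 0.864 FPKM (SD, n = 4), a ratio of 3.69, and the log2 fold change of 1.25 (SE 0.148, adjusted p = 2.15e-04 in limma) understates it, because 1 was added before the logarithm. Of the exon bases of *Mmp19* (ENSMUSG00000025355, chr10:128790910-128800824, plus strand), 28.3% are under exons of genes on the opposite strand, mainly *Tmem198b*, and the sources used here do not state whether strand was used in counting.

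**Figure D2:**
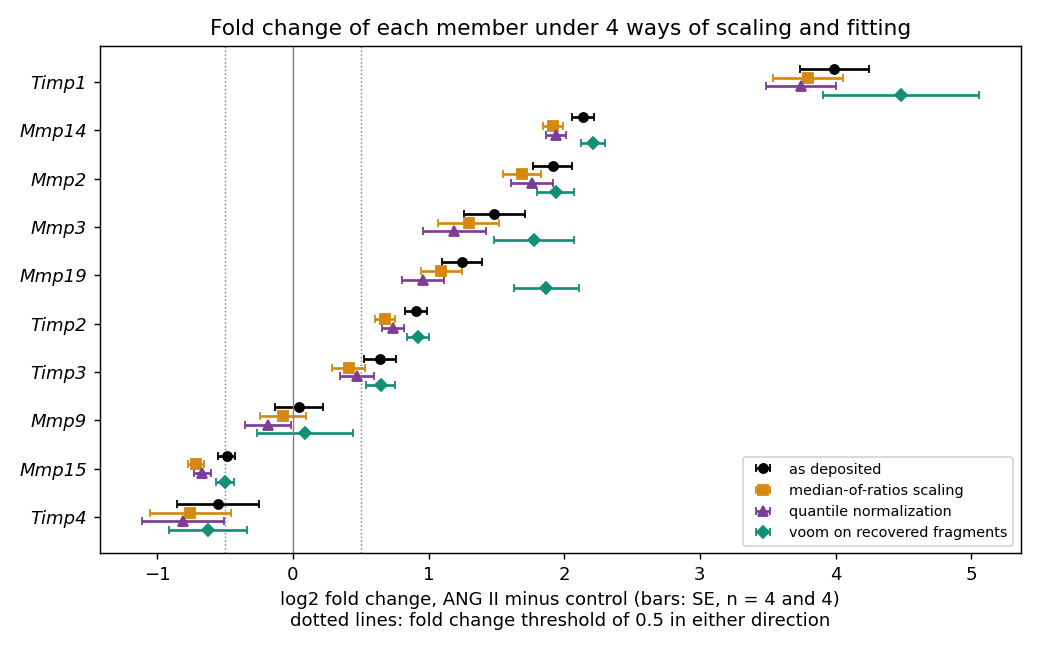
Log2 fold change (ANG II minus control) of the 10 genes with its SE, from 4 libraries per group, as deposited, after median-of-ratios scaling, after quantile normalization, and from voom on the recovered fragments. *Timp1* lies between 3.74 and 4.48 in all 4 and *Mmp14* between 1.92 and 2.21, *Timp3* and *Mmp15* cross the dotted threshold of 0.5 with the scaling, and *Mmp9* changes sign.

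Each member was also taken as a single value and tested by exact permutation, two-sided, over the 70 ways to divide the 8 libraries. The smallest p this design allows is 0.0286, and the 8 members whose groups did not overlap reached it. The exact p was 0.229 for *Timp4* and 0.8 for *Mmp9*. With median-of-ratios scaling the exact p of *Timp3* was 0.0571.

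FPKM values are shares of a library, and the make-up of the libraries differed between the groups. Mitochondrially encoded genes took 26.3% to 26.9% of the fragments in the controls and 19.2% to 21.8% under ANG II. The median log2 fold change of all tested genes was 0.15 as deposited, 0.0040 with median-of-ratios scaling and -0.040 with quantile normalization. Relative to the deposited median, the members that rose stood at 3.84 for *Timp1*, 1.99 for *Mmp14*, 1.77 for *Mmp2*, 1.34 for *Mmp3*, 1.10 for *Mmp19*, 0.76 for *Timp2* and 0.49 for *Timp3*. The rises of *Timp1*, *Timp2*, *Mmp2*, *Mmp3*, *Mmp14* and *Mmp19* were called under all 3 scalings. Over all tested genes, the calls were 2708 higher and 273 lower as deposited, 1670 higher and 804 lower with the median of ratios, and 1416 higher and 983 lower with quantile normalization.

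The order of the levels changed between the groups. In control, *Timp3* (65.0 FPKM), *Timp2* (53.6), *Mmp2* (53.0) and *Mmp15* (47.9) formed the upper tier, and each overlapped with the next in its range over libraries. *Mmp14* and *Timp4* followed, overlapping with each other, and *Mmp3*, *Timp1*, *Mmp9* and *Mmp19* were lowest, with *Timp1* separate from *Mmp9* and the other neighbours overlapping. In ANG II, *Mmp2* stood alone at the top, followed by *Timp3* and *Timp2*, which overlapped. *Mmp14* came next and overlapped with *Timp1*, which had moved from the 8th to the 5th place. *Mmp15* overlapped with *Timp1* and was separate from *Mmp3*, *Timp4* and *Mmp19*, which overlapped with their neighbours, and *Mmp9* was last and separate. The deposited FPKM values divide by the mean length of all annotated transcripts of a gene, so the levels of genes with short extra transcripts, such as *Mmp14* (mean 1420 bases, longest 3238 bases), depend on the annotation. With the longest transcript as length, *Timp1* was 3rd in ANG II (51.8 FPKM), after *Mmp2* and *Timp2*, and in control *Timp2* was above *Timp3*, *Mmp15* above *Mmp2* and *Timp4* above *Mmp14*. *Mmp2* (69.6 to 110 FPKM) then overlapped in ANG II with *Timp1* (32.2 to 83.0 FPKM), which was above it in ANG II 3. The ratio of group means of a gene does not depend on the length used.

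The levels were summed to describe the balance of inhibitors and proteases, as values per library with no test. The summed FPKM of the 4 inhibitors was 133 ± 15.8 in the controls and 264 ± 29.6 under ANG II (SD, n = 4). The summed FPKM of the 6 proteases was 121 ± 12.0 in the controls and 323 ± 34.0 under ANG II (SD, n = 4). Both sums were higher in every ANG II library than in any control. The ratio of the inhibitor sum to the protease sum was 1.02 to 1.28 in the controls and 0.696 to 1.003 under ANG II. This narrow separation depended on transcript length. When each gene's longest transcript was used as its length, the ratio was 1.11 to 1.36 in the controls and 0.872 to 1.36 under ANG II, so that the ranges overlapped.

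**Figure D3:**
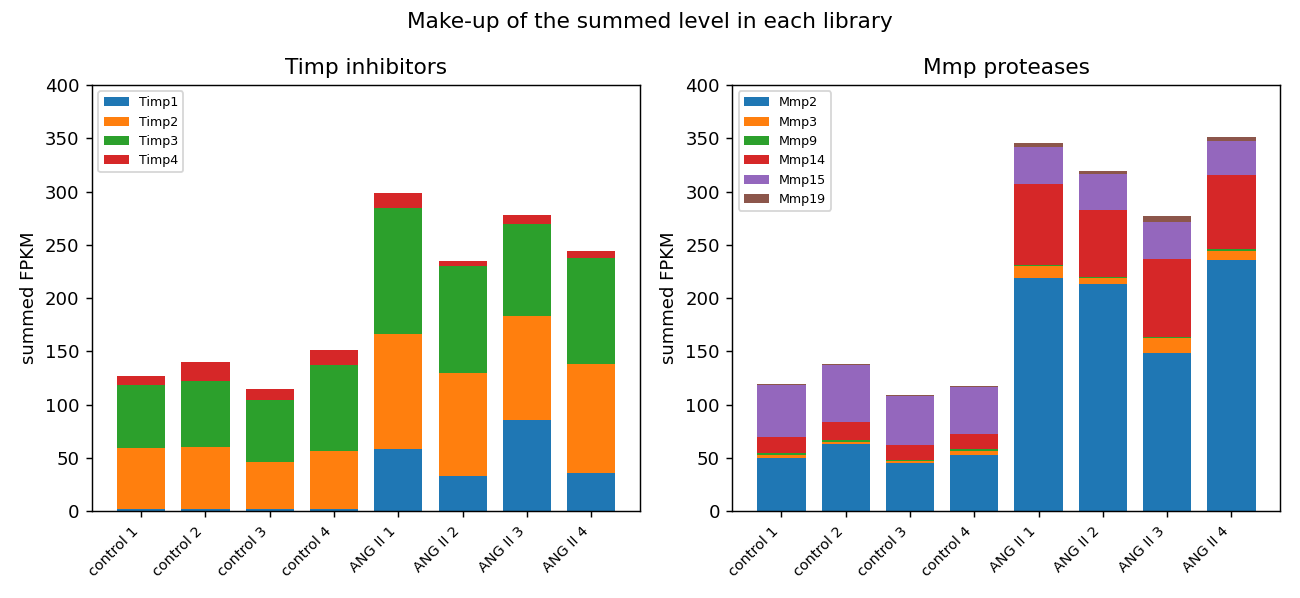
Summed FPKM of the 4 inhibitors (left) and the 6 proteases (right) in each of the 8 libraries, on a linear axis from 0, with the share of each gene in colour. *Timp1* grows from a thin band to 14.1% to 30.8% of the inhibitor sum in ANG II, and *Mmp2* and *Mmp14* grow while *Mmp15* shrinks to 9.14% to 12.5% of the protease sum.

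The composition of each sum also differed. *Timp1* made up 1.66 ± 0.269% of the inhibitor sum in the controls and 19.8 ± 7.68% under ANG II (SD, n = 4), *Timp4* made up 9.23 ± 2.62% and 3.09 ± 1.19%, *Timp3* 48.7 ± 4.06% and 38.6 ± 5.07%, and *Timp2* 40.4 ± 3.81% and 38.5 ± 3.37%. The ratio of *Timp1* to *Timp4* was 0.113 to 0.328 in the controls and 4.07 to 10.7 under ANG II, so that the order of these 2 inhibitors was turned in all 4 ANG II libraries. With the longest transcript as length this ratio was 0.188 to 0.544 and 6.75 to 17.7, and *Timp1* made up 2.95% and 30.3% of the inhibitor sum. Among the proteases, *Mmp15* made up 39.6 ± 2.29% of the sum in the controls and 10.5 ± 1.39% under ANG II (SD, n = 4), while *Mmp2* went from 43.6 ± 2.11% to 62.7 ± 6.20% and *Mmp14* from 12.6 ± 0.303% to 22.0 ± 3.28%. The ratio of *Mmp14* to *Mmp15* was 0.319 ± 0.0133 in the controls and 2.09 ± 0.135 under ANG II (SD, n = 4). The proteins of *Mmp14*, *Mmp2* and *Timp2* meet in the activation of the *Mmp2* precursor, which was not measured here. At the transcript level, *Mmp14* per *Timp2* went from 0.286 ± 0.0198 to 0.699 ± 0.0450 and *Mmp2* per *Timp2* from 0.989 ± 0.0793 to 2.02 ± 0.348 (SD, n = 4).

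The ANG II libraries differed among themselves in a way that ran through several members. *Timp1* and *Mmp3* had the same order, ANG II 3 highest, then 1, 4 and 2, and *Mmp19* was also highest in ANG II 3. *Mmp2* and *Timp3* were lowest in ANG II 3. The summed FPKM of 10 macrophage markers had the order of *Timp1*, with 947 in ANG II 3, 834 in ANG II 1, 738 in ANG II 4 and 678 in ANG II 2. Not every marker in it had that order. *Lyz2*, the largest part of the sum, *Cd68* and *Mrc1* were lowest in ANG II 4, and *Cd14* was highest there. The sums of the other marker lists had other orders. ANG II 3 also had the lowest sum of 6 activated fibroblast markers (705 FPKM, against 958 to 1213 in the other ANG II libraries) and the highest sum of atrial markers (230 FPKM, against 52.5 to 126). The part of cell make-up and of atrial tissue in these differences was not tested. Without ANG II 3, the same number of members, 7, was called higher and 0 lower.

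By a distance over all 8 libraries, 3 genes lay nearest to *Timp1* among 12946 genes averaging 1 FPKM or more. The distance was the root mean square difference of log2(FPKM + 1), each gene set to its own control mean. It takes in the size of the difference between the groups as well as the order of the libraries. *Serpina3n*, a secreted inhibitor of serine proteases, was nearest at 0.196, with 4.02 ± 0.597 FPKM in the controls and 76.3 ± 23.8 FPKM under ANG II (SD, n = 4). Like *Timp1*, it was highest in ANG II 3. *Spp1*, which encodes the matrix protein osteopontin, followed at 0.435 (1.15 ± 0.844 to 29.0 ± 14.5 FPKM), and *Fn1*, which encodes fibronectin, at 0.505 (15.6 ± 1.98 to 205 ± 21.5 FPKM). *Spp1* was also highest in ANG II 3, whereas *Fn1* was lowest there (186 FPKM, against 187 to 225 FPKM in the other ANG II libraries).

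Promoters were available for 7 of the 10 members as RefSeq sequences of 250 bases before and 50 bases after the start site (GRCm38.p6). For *Mmp2*, *Mmp9* and *Mmp19* there was no promoter, and *Mmp19* was also highest in ANG II 3. Those of *Timp1* and *Mmp3* are shown because these members had the same order over the ANG II libraries. Capitals mark matches to the AP-1 motif TGANTCA or its variant TGAGTAA, and to the PEA3 motif AGGAAG, searched on both strands. The stretches are chrX:20869916-20870215 for *Timp1* and chr9:7445572-7445871 for *Mmp3*, both on the plus strand.
Timp1: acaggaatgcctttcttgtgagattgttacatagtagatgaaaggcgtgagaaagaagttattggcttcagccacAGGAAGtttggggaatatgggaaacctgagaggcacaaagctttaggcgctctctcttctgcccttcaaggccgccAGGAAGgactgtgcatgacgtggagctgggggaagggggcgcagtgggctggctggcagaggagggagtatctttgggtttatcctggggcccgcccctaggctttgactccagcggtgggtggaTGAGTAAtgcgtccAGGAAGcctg
Mmp3: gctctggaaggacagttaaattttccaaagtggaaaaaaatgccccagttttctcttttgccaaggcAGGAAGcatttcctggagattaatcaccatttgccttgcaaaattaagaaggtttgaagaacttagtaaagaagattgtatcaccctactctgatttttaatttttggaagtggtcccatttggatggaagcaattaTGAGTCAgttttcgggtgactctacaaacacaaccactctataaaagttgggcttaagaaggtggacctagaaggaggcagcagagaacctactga
The *Timp1* stretch held no TGANTCA. It held the variant TGAGTAA 26 bases after the start site and AGGAAG 3 times. The *Mmp3* stretch held TGAGTCA 46 bases before the start site and a single AGGAAG. None of the other 5 member promoters held TGANTCA or TGAGTAA, and 3 of them (*Timp3*, *Timp4* and *Mmp14*) held AGGAAG. Of 32851 promoters of the same length, 7.81% held TGANTCA, 2.68% held TGAGTAA and 35.4% held AGGAAG. The GC box GGGCGG and TATAAA were searched as well and are not marked. *Timp1*, *Timp2*, *Timp3*, *Mmp14* and *Mmp15* held the GC box, as did 35.7% of all these promoters. Of the members, only *Mmp3* held TATAAA, 7 bases before the start site, against 13.6% of all these promoters. No motif overlapped another in the stretches shown. The part of these motifs in the order over the ANG II libraries was not tested.

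The genes around the family were counted in lists drawn up by role, 88 genes in all, of which 75 were tested. Of these, 46 were called higher and 0 lower by limma, against 14.0% of all tested genes called higher. The count was 35 with median-of-ratios scaling and 35 with quantile normalization, against 8.62% and 7.31% of all tested genes. At an unadjusted p under 0.05, 1 of them was lower (*Vtn*, vitronectin), and limma voom called 0 lower. Of the 17 other *Mmp* genes, 10 were tested and 4 rose: *Mmp23* (4.21 ± 1.15 to 17.5 ± 1.36 FPKM, log2 fold change 1.86), *Mmp12*, the macrophage elastase (0.359 ± 0.241 to 2.81 ± 1.71 FPKM, 1.39), *Mmp11* (5.36 ± 1.34 to 9.0 ± 1.22 FPKM, 0.67) and *Mmp28* (2.42 ± 0.314 to 3.84 ± 0.511 FPKM, 0.50). *Mmp11* and *Mmp28* lost their calls with median-of-ratios scaling (0.47 and 0.33, adjusted p = 0.0516 and 0.0530 in limma) and with quantile normalization (0.38 and 0.18, adjusted p = 0.109 and 0.266). *Mmp16* (log2 fold change 0.40) and *Mmp17* (0.46) passed the threshold on p and not that on fold change. Adding 1 FPKM shrinks the fold change of such low genes, and with a pseudocount of 0.1 they stood at 0.99 and 0.90 and were called, as they were by voom. *Mmp8* (0.27), *Mmp13* (0.30), *Mmp25* (0.12) and *Mmp27* (0.25) did not pass on p, and of these voom called *Mmp8* (2.33, adjusted p = 0.0341 by limma voom). *Mmp1a*, *Mmp1b*, *Mmp7*, *Mmp20* and *Mmp21* were listed at 0 in all 8 libraries.

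**Figure D4:**
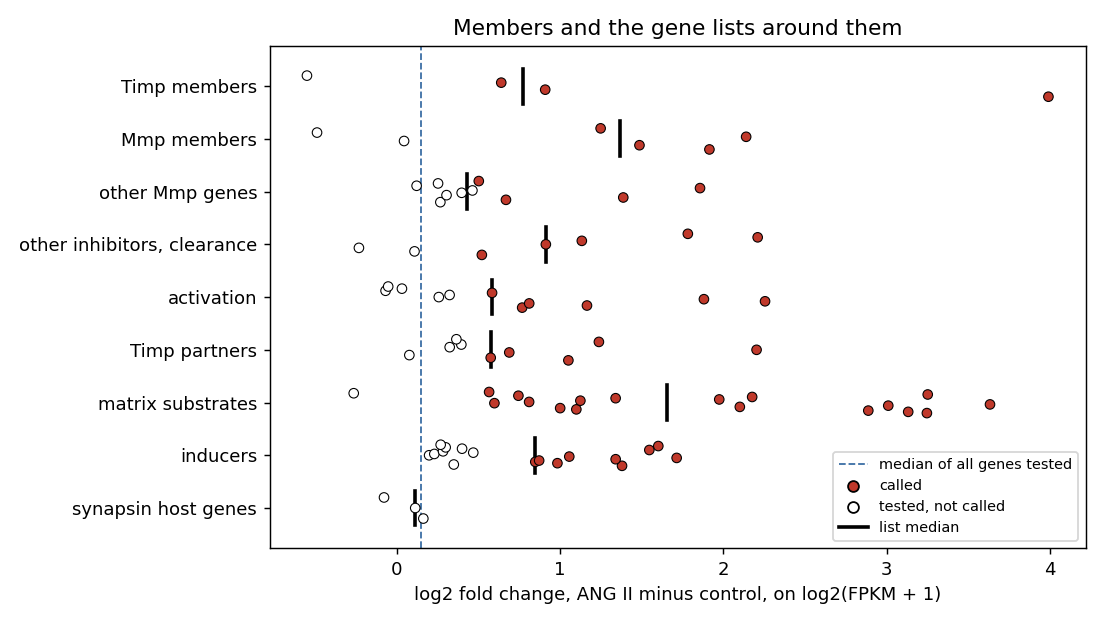
Log2 fold change of the tested genes in the member families and in the lists around them, 1 point per gene, filled when called, with the list median as a bar and the median of all 19364 tested genes (0.15) as a dashed line. Matrix proteins have the highest list median (1.66), the other *Mmp* genes have a median of 0.43, which is 0.93 with a pseudocount of 0.1, and no point of the synapsin genes is filled.

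Genes that act on metalloproteinases without being Timps also moved. Of 7 further inhibitors and clearance genes, 5 rose, with a list median of 0.91. *Reck*, a membrane-anchored inhibitor of metalloproteinases, went from 3.28 ± 0.516 to 5.13 ± 0.617 FPKM (log2 fold change 0.52, adjusted p = 0.00853 in limma), and its call was lost with median-of-ratios scaling (0.34, adjusted p = 0.0609) and with quantile normalization (0.20, adjusted p = 0.235). The clearance receptor *Lrp1* rose from 69.7 ± 7.17 to 154 ± 13.1 FPKM (1.13), and *Thbs2*, through which Mmp2 protein is taken up for clearance, from 6.15 ± 1.66 to 23.3 ± 3.10 FPKM (1.78). The plasma inhibitor *A2m* stood at 0.248 ± 0.230 and 0.329 ± 0.0598 FPKM (0.11, adjusted p = 0.561 in limma; SD, n = 4 for all these genes).

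Of 16 genes that activate metalloproteinase precursors or control that step, 11 were tested and 6 rose, against 4 with median-of-ratios scaling and 4 with quantile normalization. The plasminogen activators *Plat* (12.5 ± 1.42 to 22.7 ± 2.08 FPKM, log2 fold change 0.81) and *Plau* (2.32 ± 0.746 to 4.71 ± 1.48 FPKM, 0.77) both rose, although the groups overlapped for *Plau*, which lost its call with median-of-ratios scaling (adjusted p = 0.0589 in limma) and with quantile normalization (adjusted p = 0.137). The urokinase receptor *Plaur* rose from 2.43 ± 0.924 to 6.49 ± 0.682 FPKM (1.16). *Furin*, which removes the propeptide of the membrane-type enzymes, went from 33.7 ± 0.815 to 42.4 ± 1.83 FPKM without reaching the fold change threshold (0.32, adjusted p = 8.95e-04 in limma). *Bsg*, an inducer of metalloproteinases on cell surfaces, was at 912 ± 19.0 and 879 ± 48.7 FPKM (-0.05, adjusted p = 0.485 in limma; SD, n = 4 for all these genes).

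Transcripts of the proteins on which these enzymes act also differed. Of 18 matrix genes, 17 rose, with a list median of 1.66, against 15 with median-of-ratios scaling and 15 with quantile normalization. *Col1a1* went from 64.7 ± 17.2 to 608 ± 52.2 FPKM (log2 fold change 3.25), *Col3a1* from 162 ± 36.9 to 1190 ± 133 FPKM (2.89) and the basement membrane collagen *Col4a1* from 341 ± 35.0 to 734 ± 94.6 FPKM (1.10; SD, n = 4). The log2 fold changes of *Mmp2* (1.91) and *Mmp14* (2.14) lay between those of *Col4a1* and *Col3a1*, and that of *Timp1* (3.99) was above those of *Col1a1* and *Fn1* (3.63); these differences between genes were not tested.

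Of 9 genes for receptors and further targets of the inhibitors, 5 rose, against 3 with median-of-ratios scaling. *Itgb1*, an integrin subunit, fell under the fold change threshold with that scaling (0.35) and with quantile normalization (0.44). *Cd63*, a cell-surface partner of Timp1, rose from 59.6 ± 2.73 to 125 ± 7.89 FPKM (log2 fold change 1.05). Of its 6 proteases of the ADAM and ADAMTS families, 3 rose, *Adam12* (0.449 ± 0.0723 to 5.90 ± 2.06 FPKM, 2.20), *Adamts4* (0.943 ± 0.244 to 3.67 ± 1.17 FPKM, 1.24) and *Adam10* (28.7 ± 1.21 to 46.9 ± 3.17 FPKM, 0.69), and *Adam10* fell under the fold change threshold with median-of-ratios scaling (0.46). *Adam17* (23.2 ± 0.556 to 29.3 ± 1.56 FPKM, 0.32), *Adamts5* (3.63 ± 0.798 to 4.92 ± 0.620 FPKM, 0.36) and *Adamts1* (0.39) were not called. Of 18 cytokines and transcription factors known to act on *Mmp* or *Timp1* transcription, 17 were tested and 9 rose, against 7 with median-of-ratios scaling and 6 with quantile normalization. *Tgfb1* rose from 21.1 ± 3.02 to 39.2 ± 1.22 FPKM (0.87), and *Il1b* from 2.48 ± 1.55 to 9.06 ± 7.12 FPKM (1.38, adjusted p = 0.0383 in limma), with overlapping groups and with 19.2 FPKM in ANG II 4 alone. The *Il1b* call was lost with median-of-ratios scaling (adjusted p = 0.0697 in limma) and with quantile normalization (adjusted p = 0.108). Of the AP-1 subunits in this list, 6 were tested and 2 rose, *Junb* (9.84 ± 3.00 to 30.7 ± 9.38 FPKM, 1.55) and *Fos* (6.56 ± 0.872 to 16.1 ± 9.23 FPKM, 1.06), and *Fos* lost its call with quantile normalization (adjusted p = 0.0652 in limma). *Fosl1* (0.23), *Fosl2* (0.47), *Fosb* (0.20) and *Jun* (0.28) were not called, and *Jund* was listed at 0 in all 8 libraries, which can be a failed estimate. Of the 3 synapsin genes within which *Timp1*, *Timp3* and *Timp4* lie, limma called 0, with 0 at an unadjusted p under 0.05, and voom called 1 (*Syn1*).

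Cell markers moved with the members. In whole tissue, fewer cells of a type and less RNA per cell cannot be told apart. Over all tested genes, limma called 14.0% higher and 1.41% lower, and 5.06% were lower without overlap. The shares called higher and lower were 8.62% and 4.15% with median-of-ratios scaling. They were 7.31% and 5.08% with quantile normalization. All 6 markers of activated fibroblasts rose, with sums of 37.0 to 86.2 FPKM in the controls and 705 to 1213 FPKM under ANG II, as did all 10 macrophage markers (301 to 378 and 678 to 947 FPKM) and 7 of 8 fibroblast markers (1083 to 1459 and 2285 to 2589 FPKM). With median-of-ratios scaling the counts were 6, 9 and 6, and with quantile normalization 6, 9 and 5. The remaining fibroblast marker, *Gsn*, was called lower with median-of-ratios scaling and with quantile normalization. Of 8 cardiomyocyte markers, 2 fell (*Myh6* and *Tnni3*) and 6 were lower without overlap, with sums of 47364 to 48303 FPKM in the controls and 35506 to 38203 FPKM under ANG II. The count called lower was 5 with median-of-ratios scaling, and 1 (*Pln*) with quantile normalization, which did not call *Myh6* or *Tnni3*. Beside *Mmp9*, 4 of 5 tested neutrophil markers rose, with sums of 2.76 to 6.79 FPKM in the controls and 8.72 to 22.1 FPKM under ANG II, while the defining markers *Ly6g*, *Camp* and *Ngp* stayed under the expression filter. Of the other lists, 3 of 7 smooth muscle and pericyte markers, 2 of 7 endothelial and 2 of 6 T cell markers rose, beside 14.0% of all tested genes. These counts were 2, 0 and 2 with median-of-ratios scaling and 1, 0 and 1 with quantile normalization. As deposited, limma called none of 4 B cell, 5 mast cell and 6 mesothelial markers, with 0 at an unadjusted p under 0.05 and 0 by voom in each. With quantile normalization the mast cell marker *Mcpt4* was called lower (-0.53, adjusted p = 0.0258 in limma). The part of cell make-up in the members' differences was not tested.

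Atrial markers were read as a check of the labelled left ventricle. The sum of *Sln*, *Myl4*, *Myl7* and *Bmp10* was 1.15 to 48.8 FPKM in the controls and 52.5 to 230 FPKM under ANG II, beside ventricular *Myl2* at 10477 to 11733 FPKM in the controls and 7249 to 8925 FPKM under ANG II. Of the 3 that were tested, *Sln* was called higher (log2 fold change 1.69), though not with median-of-ratios scaling (adjusted p = 0.0507 in limma). *Myl4* (2.23) and *Myl7* (2.38) were higher without overlap and missed the threshold on p (adjusted p = 0.0557 in limma for both), voom called all 3, and *Bmp10* was listed at 0 in all controls. The part of atrial tissue in the members' values was not tested.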

How the data were processed

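For 8 left ventricle libraries (4 control, 4 ANG II), the authors deposited 1 table of FPKM values. The labels name Bowtie2, HISAT and RSEM. Roles, versions, genome build, annotation and use of strand were not given in the sources used here. Groups came from the treatment labels. Low FPKM values multiplied by the mean GENCODE M21 transcript length were whole multiples of 1 step per library (at least 96.6% of values under 60 fragments, within 0.02), which gave the fragments. They cover counting error only. Of the gene IDs, 55141 of 55679 were in GENCODE M21 (GRCm38).

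limma 3.58.1 in R 4.3.3 (lmFit, eBayes with variance trend) was run on log2(FPKM + 1) of all 19364 genes averaging 0.1 FPKM or more, two-sided, with Benjamini-Hochberg adjustment over all of them and no covariate. The study names limma and the thresholds. The pseudocount, the filter and base 2 were chosen here. The study calls its sequencing samples biological replicates. The fit was also run on simulated fragments with equal depth and no difference in library make-up between the groups. It was therefore not tested under the difference in make-up seen here. Python 3.11.15 and matplotlib 3.10.9 were used for sums and figures.

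The members and lists were chosen with earlier results of these data known. Named were all 10 members, the tested *Mmp* genes, fixed examples of each list by role, and the 3 genes nearest to *Timp1*. Of the fixed examples, 1 is not reported here singly, and counts over its list keep it. *Vtn*, *Mmp10*, *Jund*, *Junb*, *Fos*, *Fosb*, *Jun*, *Adam10*, *Adam12*, *Adamts1*, *Adamts4*, *Itgb1* and the markers named singly were chosen after their values were seen. Alternatives changed the pseudocount, filter, scaling, variance trend, block, fold change threshold, fit and libraries, and, chosen after seeing the data, the transcript length.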

Additional observations from a re-analysis of the deposited data

Results flagged for a closer look

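A test for a library that stands far from the rest of its group (Dixon's ratio of the gap to the range) was run on 56 groups of 4 values, and 2 passed its limit, where chance gives about 1 in 20. *Mmp19* made up 1.86% of the summed FPKM of the 6 proteases in ANG II 3, against 0.973% to 1.07% in the other ANG II libraries. The ratio of *Mmp14* to *Mmp15* was 1.89 in ANG II 2, against 2.14 to 2.17 in the other ANG II libraries.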

How the results depend on the processing

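*Timp1*, *Mmp2*, *Mmp3*, *Mmp14* and *Mmp19* were called higher under all 19 alternatives, and 7 members were called higher without any 1 library. *Timp2* lost its call only at a fold change threshold of 1. *Timp3* also lost it with a common total (0.49), and its exact p with median-of-ratios scaling was 0.0571. *Mmp9*, with an adjusted p of 0.451 to 0.940 over the alternatives, had a log2 fold change of -0.033 with a common total, -0.073 with the median of ratios (exact p = 0.714), -0.18 with quantile normalization, and between -0.065 and 0.18 with 1 library left out, negative without ANG II 2, ANG II 4 or control 3. Members called lower numbered 1 (*Mmp15*) with a common total, the median of ratios, a pseudocount of 0.1, quantile normalization, voom or no fold change threshold, and 0 to 2 with 1 library left out (2 without ANG II 1, 1 without control 3 or control 4). All genes called higher numbered 1670 with the median of ratios, 1416 with quantile normalization, 767 at a threshold of 1 and 5496 with none, and genes called lower 804, 983, 28 and 951, and 536 with a common total. Of the genes in the lists, 29 were called higher at a threshold of 1. Other *Mmp* genes called higher were 2 with either scaling and 7 with voom. With the longest transcript as length (chosen after the data had been seen), mean sums were 72.7 and 165.9 FPKM for the inhibitors and 61.3 and 157 FPKM for the proteases in control and ANG II, the ratio of the sums in ANG II was 1.07, *Timp1* made up 2.95% and 30.3% of the inhibitor sum, and *Mmp14* per *Timp2* was 0.210 and 0.514. The cause of these changes was not tested. The replicate number was also fitted as a replicate block, although the numbers did not pair the libraries (correlation of deviations between libraries of the same number -0.032 to 0.062). The block left 7 members called higher and 0 lower, and 2700 genes higher and 268 lower. *Mmp9* and the control values of *Timp1* rested on few fragments, which limits their precision.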
